A study of Mus musculus with 4 samples.

Results

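The 7 transcripts described here are Toporsl, 1600029I14Rik, 1700028P14Rik, Wdr95, 4930432J09Rik, Cep41 and Cybrd1. They are little-known transcripts, chosen by their lower log2 ratio of Sox2-Tbx2LOF over control on the arrays used here, in organs of Corti of mouse embryos. They were collected by gene name from 39429 array probes and are represented by 12 probes. Of these, 11 were bright enough to be tested (well above background in 3 or more pools of a genotype), among 28104 tested probes of 21219 genes. A probe was called lower when limma gave an adjusted p under 0.05 and a decrease of at least 1.5-fold. Each of the 7 had a called probe, 8 probes in all, while 0.128% of all tested probes were called lower. This count follows from the choice of the transcripts and nothing is read from it. The ratios between genotypes below are therefore a description without a test, and so is the difference in ratio between sexes, which uses the same array ratios. Levels between sexes, neighbouring genes and related genes were tested. The calls came close to the threshold for Cybrd1 and 4930432J09Rik, which were 1.53-fold and 1.51-fold lower, and just outside it lay Asic2 and Pkp1, both 1.49-fold lower.

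RNA was compared on 4 dual-colour Agilent arrays, each with a pool of Sox2-Tbx2LOF organs of Corti against a control pool of the same sex, so that n = 4 pools per genotype. Sox2-Tbx2LOF embryos were Sox2(creERT2);Tbx2(fl/fl) and therefore carried a tamoxifen-inducible recombinase knocked into Sox2, which limits recombination to Sox2-expressing cells and alters a Sox2 allele as well. Controls lacked the recombinase and are labelled Tbx2(fl/n.d.), so the label leaves their second allele undetermined. By the breeding scheme in the methods, both parents were Tbx2(fl/fl), so littermates without the recombinase were Tbx2(fl/fl) as well. By the same scheme, they and the Sox2-Tbx2LOF embryos both carried the R26 mTmG reporter, which the labels do not list for either genotype. All embryos were of the NMRI strain, and their dams received 4 mg of tamoxifen by mouth at E16.5. By the methods, dams treated at this stage were also given 2 mg of progesterone. Tissue came from the basal part of the cochlea at E18.5, from several embryos per pool, sorted by sex. Arrays 1 and 2 held female pools and arrays 3 and 4 male pools, and the Sox2-Tbx2LOF RNA was labelled with Cy3 on arrays 1 and 3 and with Cy5 on arrays 2 and 4.

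The median spot signal lay between 315 and 412 in the 8 channels, 70.4% to 75.2% of probe spots were well above background, and no spot was saturated. The single Tbx2 probe had log2 ratios of −0.06, −0.24, −0.02 and −0.30 and did not pass the correction over all probes (limma, adjusted p = 0.313), and Sox2 was at 0.23 ± 0.09 (SD, n = 4; limma, adjusted p = 0.0872). The 4 arrays shared 1 slide and 1 scan, and their number limits the precision of every value. All 8 general hair cell markers, including Myo7a, Pou4f3 and Gfi1, were measured, and none was called. Among 7 markers of inner hair cells (IHCs), 4 were called lower (Fgf8, Cabp2, Slc17a8 and Dnajc5b), with a list median log2 ratio of −0.66, and 2 of 6 markers of inner supporting cells were called lower (Otol1 and Fgf20). The called markers of both lists are those that the study had picked on these arrays, so these counts follow from that choice. No other marker of either list was called, and the remaining IHC markers, Otof, Calb2 and Atp2a3, were at −0.40, 0.01 and −0.14. Of 7 tested markers of outer hair cells, 1 was called higher (Strip2) and 3 had a ratio below 0, with a list median of 0.09. Of 6 markers of outer supporting cells, 0 were called, with a list median of 0.07. Hey2 had the smallest p of these, at 0.29 ± 0.08 (limma, adjusted p = 0.0409), short of 1.5-fold. Lists for mesenchyme, blood, melanocytes, neurons, glia and vessels with macrophages had 0 calls, and their tested markers were well above background in all 8 pools. The log2 of the summed intensity of the inner hair cell list was 12.87 to 13.25 in Sox2-Tbx2LOF and 13.36 to 13.71 in control pools. For the general hair cell list it was 14.46 to 14.61 and 14.45 to 14.62. Such a sum follows its brightest probes most, which for the inner hair cell list is that of Otof. The part of these cell types in the decreases below was not tested, and in pools of whole tissue fewer cells of a type and less RNA per cell cannot be told apart.

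The 7 transcripts have no common function. Toporsl is named for its likeness to Topors, a ligase that attaches ubiquitin and SUMO to other proteins. Names ending in Rik come from a large collection of mouse cDNAs, and 1600029I14Rik and 4930432J09Rik are long non-coding RNAs, while 1700028P14Rik encodes a protein whose gene is also called Cfap95, for cilia and flagella associated protein. Wdr95 encodes a protein with WD repeats, which serve as platforms for protein assembly. Cep41 is a centrosomal protein needed for the glutamylation of tubulin in the cilium, and its human gene is mutated in Joubert syndrome. Cybrd1 is a cytochrome b561 protein that reduces ferric iron at the surface of intestinal cells. Cilia matter in this tissue because every developing hair cell carries a kinocilium, a true cilium with microtubule doublets that orients the hair bundle, and supporting cells carry primary cilia.

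Probe sequences are shown for the 2 non-coding RNAs, because their names say nothing about what was hybridised. They are the 60-base probes of the array, in the orientation given by the array files, at mm9 chr9:99375111-99375170 on the plus strand for 1600029I14Rik and at mm9 chr14:104376845-104376904 on the minus strand for 4930432J09Rik.
1600029I14Rik: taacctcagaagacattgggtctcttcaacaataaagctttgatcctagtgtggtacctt
4930432J09Rik: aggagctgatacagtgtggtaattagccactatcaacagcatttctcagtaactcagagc
Promoter windows from 250 bases before to 50 bases after the transcript start were taken from RefSeq, build GRCm38.p6, where 5 of the 7 genes matched with 6 windows. The window of Cep41 is shown because its probes disagreed with each other, and that of 1700028P14Rik because it holds a similar element. They lie at chr6:30693700-30693999 and chr19:23652763-23653062, both on the minus strand.
Cep41: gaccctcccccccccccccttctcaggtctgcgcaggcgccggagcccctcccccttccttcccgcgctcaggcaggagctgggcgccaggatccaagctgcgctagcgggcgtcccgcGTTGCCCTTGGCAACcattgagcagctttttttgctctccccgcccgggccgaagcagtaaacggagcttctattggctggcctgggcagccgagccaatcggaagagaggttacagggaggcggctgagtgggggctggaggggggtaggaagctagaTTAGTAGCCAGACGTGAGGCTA
1700028P14Rik: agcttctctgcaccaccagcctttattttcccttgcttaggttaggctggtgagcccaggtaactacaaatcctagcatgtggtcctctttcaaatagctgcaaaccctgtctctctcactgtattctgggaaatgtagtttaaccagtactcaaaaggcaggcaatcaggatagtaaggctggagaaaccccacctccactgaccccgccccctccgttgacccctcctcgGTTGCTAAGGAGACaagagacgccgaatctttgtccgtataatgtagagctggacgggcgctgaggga
The first capitals in the Cep41 window and the capitals in the 1700028P14Rik window mark a match to the X-box, the element read by RFX factors, which are known regulators of ciliary genes. The last 22 bases of the Cep41 window, also in capitals, are the first bases of probe A_55_P2124554, so this probe reads the very start of the transcript from this promoter. The X-box was searched on both strands with spacers of 3 and 4 bases between its arms, and the search was chosen after these windows had been read. The shorter form was in 1.09% of 32851 mouse windows and began 18 bases before the start of 1700028P14Rik. The longer form was in 0.244% of windows and began 131 bases before the start of Cep41, where the pattern matched in both orientations. The core of the site bound by T-box proteins such as TBX2, GGTGTG or CACACC, was in 19.0% of all windows and in 0 of the 6. A single arm of the T-box palindrome, TCACACCT or its reverse complement AGGTGTGA, was in 1.28% of windows and likewise in 0 of the 6. These matches describe letters in a window and say nothing about binding.

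Toporsl had the largest decrease of the 7. Its log2 channel level at probe A_55_P2158836 was 8.43, 8.87, 8.65 and 9.05 in the control pools of arrays 1 to 4 and 6.77, 7.33, 7.07 and 7.08 in the Sox2-Tbx2LOF pools. Channel levels are log2 signal intensities after background correction and normalization, and they compare pools at a probe but not different probes. All 4 Sox2-Tbx2LOF pools lay more than 1 log2 unit below the lowest control pool. The log2 ratio was −1.66, −1.54, −1.58 and −1.97 on the 4 arrays, with a mean of −1.69 ± 0.20 (SD, n = 4), which is 3.22-fold lower. This was the third lowest ratio of all 28104 tested probes. The probe starts at base 2341 of the transcript (mm9 chromosome 4, 52624976 to 52625035).

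**Figure D1:**
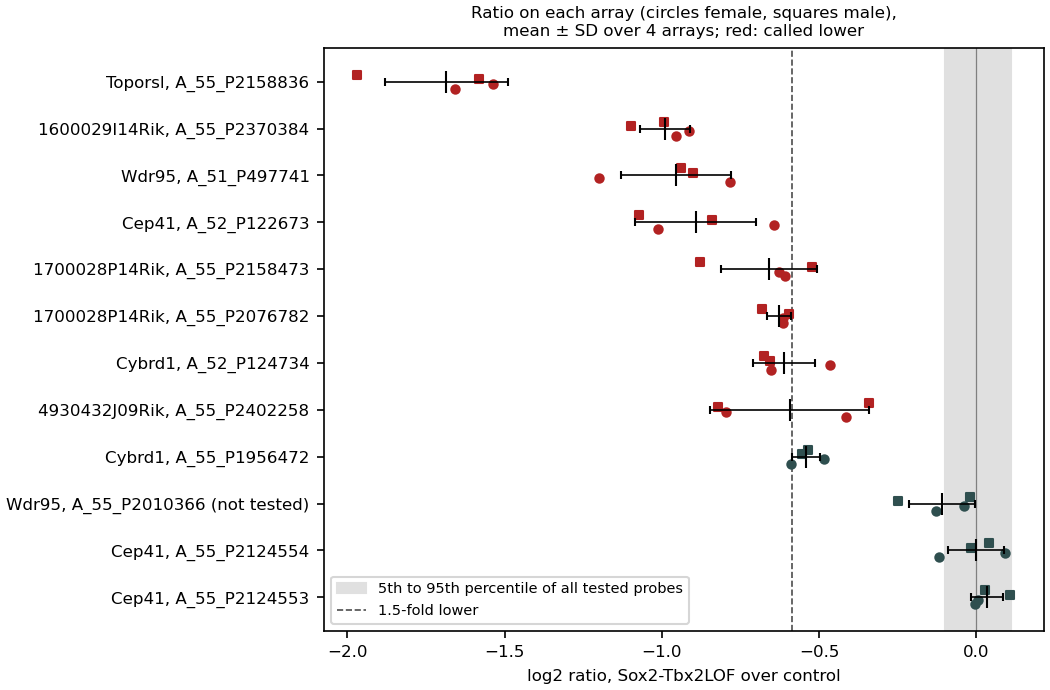
Log2 ratio of Sox2-Tbx2LOF over control on each of the 4 arrays (x axis) for the 12 probes, with circles for female and squares for male pools, bars for the mean ± SD, a grey band for the 5th to 95th percentile of all tested probes and a dashed line at 1.5-fold lower. The 8 called probes (red) lie left of the band on every array, with Toporsl at a mean of −1.69, whereas 2 Cep41 probes lie at 0.

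Both non-coding RNAs were lower, to different degrees. The level of 1600029I14Rik was 8.94, 9.11, 8.96 and 9.03 in control pools and 7.98, 8.20, 7.86 and 8.04 in Sox2-Tbx2LOF pools. With ratios of −0.96, −0.91, −1.10 and −0.99 it was even over the arrays, at a mean of −0.99 ± 0.08 (1.99-fold lower). The probe starts at base 804 of this transcript. By contrast, 4930432J09Rik had control levels of 8.34, 8.63, 8.49 and 8.30 and Sox2-Tbx2LOF levels of 7.92, 7.83, 7.67 and 7.96. Genotypes did not overlap, but the ratios of −0.42, −0.80, −0.82 and −0.34 spread widely, at a mean of −0.59 ± 0.25 (1.51-fold lower). The stronger decreases were on arrays 2 and 3, which differ from each other in sex and in dye. With array 2 left out, its limma ratio was −0.48, and with array 3 left out −0.49, both short of the 1.5-fold line. This ratio gives both dyes equal weight and is not a plain mean of the arrays kept.

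1700028P14Rik was read by 2 probes of chromosome 19 that overlap each other (mm9, 23633343 to 23633402 and 23633295 to 23633354), so they are not independent readings. At A_55_P2158473 the control pools were at 8.60, 8.79, 8.75 and 8.93 and the Sox2-Tbx2LOF pools at 8.0, 8.16, 8.23 and 8.05. At A_55_P2076782 they were at 8.43, 8.64, 8.57 and 8.71 against 7.82, 8.02, 7.97 and 8.03. Both probes separated the genotypes without overlap. The mean log2 ratio was −0.66 ± 0.15 at the former and −0.63 ± 0.04 at the latter, which had −0.61, −0.62, −0.60 and −0.68 on the 4 arrays.

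Wdr95 was close to the detection limit. At probe A_51_P497741, which starts at base 2422 (mm9 chromosome 5, 150414410 to 150414468), the control pools were at 7.33, 7.63, 7.37 and 7.42, and the probe was well above background in all 4 of them. The Sox2-Tbx2LOF pools were at 6.54, 6.43, 6.47 and 6.48, and only 2 of these were well above background. The mean log2 ratio was −0.96 ± 0.17, from −0.78, −1.20, −0.90 and −0.94, and the dim Sox2-Tbx2LOF channel makes its size depend on the background correction: it was −2.22 with the log ratio of the scanner software and −1.33 with a smaller offset added to the background-corrected signal. The other Wdr95 probe, A_55_P2010366, was not well above background in any pool and was not tested. Its levels were 6.38, 6.31, 6.49 and 6.33 in control and 6.25, 6.27, 6.25 and 6.31 in Sox2-Tbx2LOF pools, at the level of the background.

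**Figure D2:**
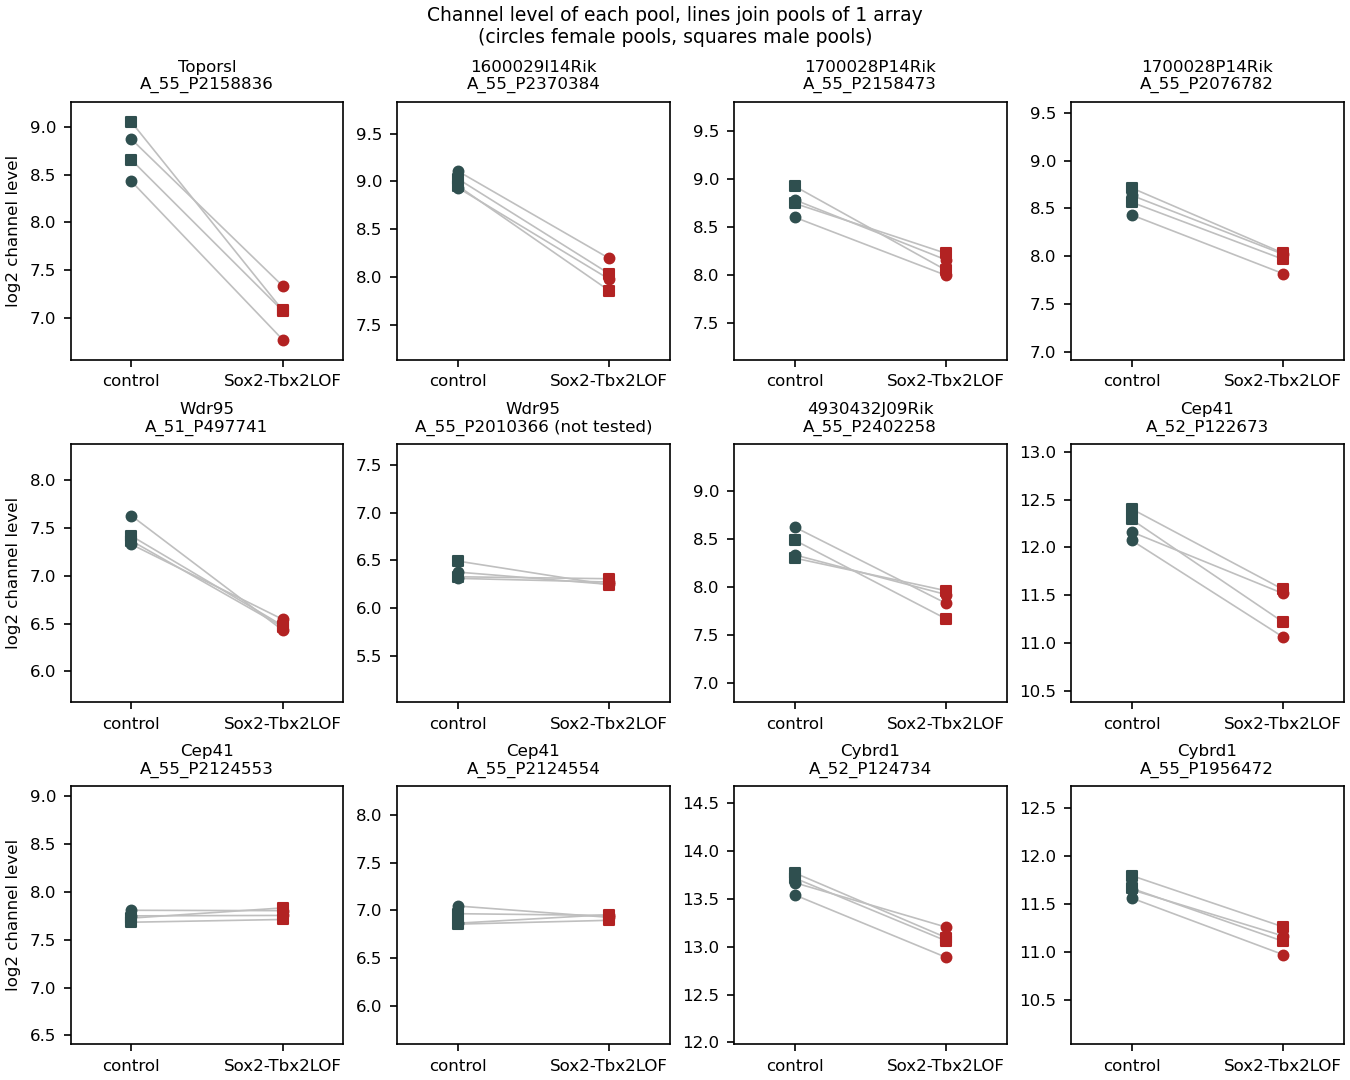
Log2 channel level (y axis, each panel spanning the same range) of the control and Sox2-Tbx2LOF pools at the 12 probes, with dark points for control, red points for Sox2-Tbx2LOF and lines joining the 2 pools of an array, circles for female and squares for male pools. The genotypes are apart at the 8 called probes and at the second Cybrd1 probe, they overlap at 2 Cep41 probes, and the untested Wdr95 probe is at background.

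Cep41 was the only one of the 7 with tested probes near 0. Probe A_52_P122673, at base 3114 of the transcript (mm9 chromosome 6, 30603730 to 30603789), was at 12.07, 12.16, 12.40 and 12.29 in control pools and at 11.06, 11.52, 11.56 and 11.22 in Sox2-Tbx2LOF pools. Its mean log2 ratio was −0.89 ± 0.19 (1.86-fold lower), from −1.01, −0.64, −0.84 and −1.07. The genotypes were apart there.
Probe A_55_P2124553, at base 114 (30630134 to 30630193), had log2 ratios between −0.00 and 0.11 with a mean of 0.03 ± 0.05. Probe A_55_P2124554, at base 28 (30643662 to 30643721) and so at the start shown in capitals above, had −0.12, 0.09, −0.02 and 0.04, with a mean of −0.00 ± 0.09. Levels of the 2 genotypes overlapped at both probes, which were well above background in all 8 pools. Over 16 other ways of processing, the ratio at base 114 stayed between 0.01 and 0.06 and that at base 28 between −0.03 and 0.02, while that at base 3114 stayed between −1.0 and −0.79. Several of these ways change only the test and leave the ratio as it was. Of 11 genes with a called lower probe and more than 1 tested probe, 5 had every probe called. Cep41 had the highest second reading, and Slc17a8 (−0.66 and −0.12) and Gabrg3 (−0.62 and −0.15) also had a probe that was hardly lower. The transcripts that each probe reads were not told apart here.

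**Figure D3:**
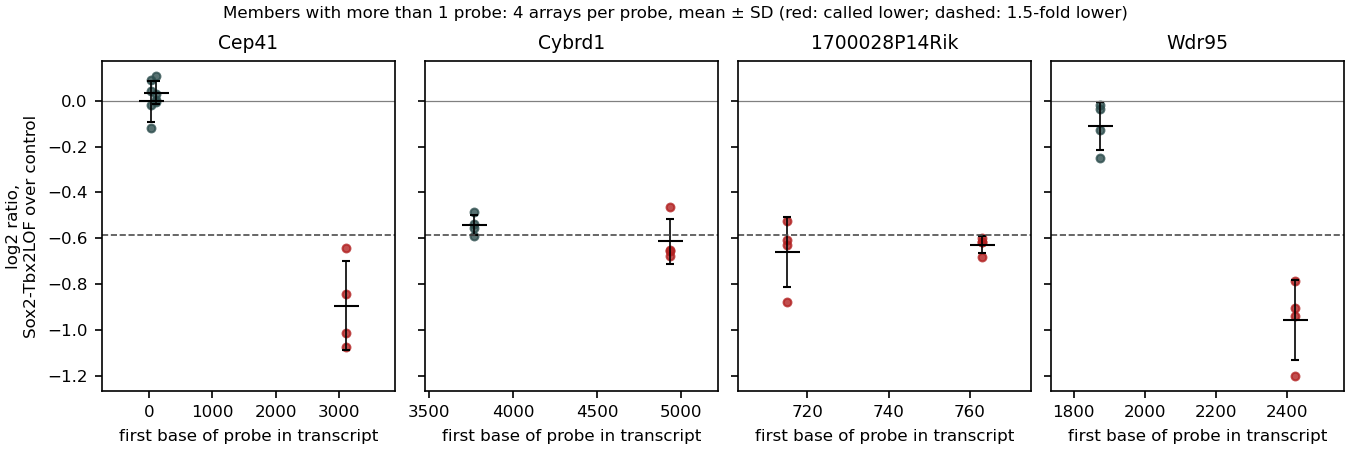
Log2 ratio on 4 arrays (y axis, points; bars are mean ± SD) against the first base of the probe in the transcript (x axis) for the 4 genes with more than 1 probe, red where called lower. In Cep41 the probe at base 3114 is at −0.89 while those at bases 28 and 114 are at 0, whereas both probes of Cybrd1 and of 1700028P14Rik are lower, and the Wdr95 probe at base 1873 was too dim to be tested.

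Cybrd1 had a small decrease at both of its probes. Probe A_52_P124734 (base 4930, mm9 chromosome 2, 70980706 to 70980765) was at 13.54, 13.67, 13.72 and 13.77 in control pools and at 12.89, 13.21, 13.06 and 13.10 in Sox2-Tbx2LOF pools. The mean log2 ratio was −0.61 ± 0.10, with −0.46 on array 2 and −0.65 to −0.68 on the other arrays. With array 4 left out, the limma ratio, which gives both dyes equal weight, was −0.56, short of the 1.5-fold line. Array 2 was then the only array of its dye, so this is not a plain mean of the arrays kept. Probe A_55_P1956472 (base 3770) was at −0.59, −0.48, −0.55 and −0.54, with a mean of −0.54 ± 0.04 (1.46-fold lower). It missed the 1.5-fold line, although its genotypes did not overlap either.
Every probe was printed 4 times on an array. For comparison, the 4 Sox2-Tbx2LOF pools all lay below the 4 control pools at 1.32% of all tested probes, and 4.58% had a ratio below 0 on every array. All 126 unflagged spots of the 8 called probes had a log2 ratio below 0, and the SD between the spots of a probe on an array was 0.03 to 0.21. Nothing is read from this count, because the transcripts were chosen for their decrease and spots of an array are copies of 1 hybridization. The same count was not made over all tested probes.

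Each called probe was lower in both sexes, given here without a test because the same ratios chose the transcripts. Toporsl had a mean log2 ratio of −1.60 in female and −1.78 in male pools, and Cep41 at base 3114 had −0.83 and −0.96. For 4930432J09Rik, the most uneven over the arrays, the sexes were at −0.61 and −0.58. The difference of male minus female ratio ran from −0.18 for Toporsl to 0.07 for Wdr95. Over all 28104 probes, the sex by genotype term of limma called 0 (0%), and 566 (2.01%) had an unadjusted p under 0.05. The difference in level of male minus female pools ran from −0.09 for 1600029I14Rik to 0.16 for Cep41 on the log2 scale, and 0 of 11 member probes were called against 2 of all probes (0.00712%). At an unadjusted p under 0.05, 392 of all probes (1.39%) and 0 of 11 member probes passed.

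Neighbouring genes were mostly level, with 2 exceptions beside the non-coding RNAs. Within 0.2 Mb of the member probes, 45 tested probes of 30 other genes had a median log2 ratio of 0.00, against 0.00 for all tested probes, and 2 were called lower. Both belonged to Ednrb, a receptor for endothelins that neural crest cells need, 156 and 162 kb from the 4930432J09Rik probe.
At Ednrb probe A_55_P2089710 the log2 ratio was −0.55, −0.74, −1.13 and −0.85 on the 4 arrays, with a mean of −0.82 ± 0.24 (limma, adjusted p = 0.00281). At A_52_P577662 the mean was −0.86 ± 0.17 (limma, adjusted p = 0.00035). Ednrb is also expressed by melanocyte precursors and glia, and of their markers 0 of 5 and 0 of 6 tested genes were called, with list medians of −0.09 and 0.03. Of the melanocyte markers, 4 of 5 had a ratio below 0. They were uneven over the 4 arrays, with Dct at −0.44, −0.32, −0.82 and 0.80 and Pmel at −0.49, −0.21, −0.37 and 0.08. The part of these cells in the Ednrb decrease was not tested. The remaining tested neighbour on that side, Gm35116, was at −0.11, and no tested probe lay within the window on the other side.

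The other neighbour of a non-coding RNA was Nme9, which encodes a thioredoxin-domain protein of the axoneme and whose probe starts 6.04 kb from that of 1600029I14Rik. Its log2 ratio was −0.49, −0.50, −0.42 and −0.57, with a mean of −0.49 ± 0.06 (limma, adjusted p = 0.00179), so it was lower on 4 of 4 arrays yet short of 1.5-fold. Armc8, 5.78 kb to the other side, was at 0.01 ± 0.10 and was not called. Other nearest genes were Smc2 at −0.12 beside Toporsl, Ptar1 at −0.05 beside 1700028P14Rik, Tex26 at 0.03 and Hsph1 at −0.10 beside Wdr95, Cpa1 at −0.02 and Mest at 0.04 beside Cep41, and Dcaf17 at 0.00 and Dync1i2 at 0.04 beside Cybrd1. On the far side of Toporsl the nearest tested probe had no gene name and was at −0.01. None of these passed the test.

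**Figure D4:**
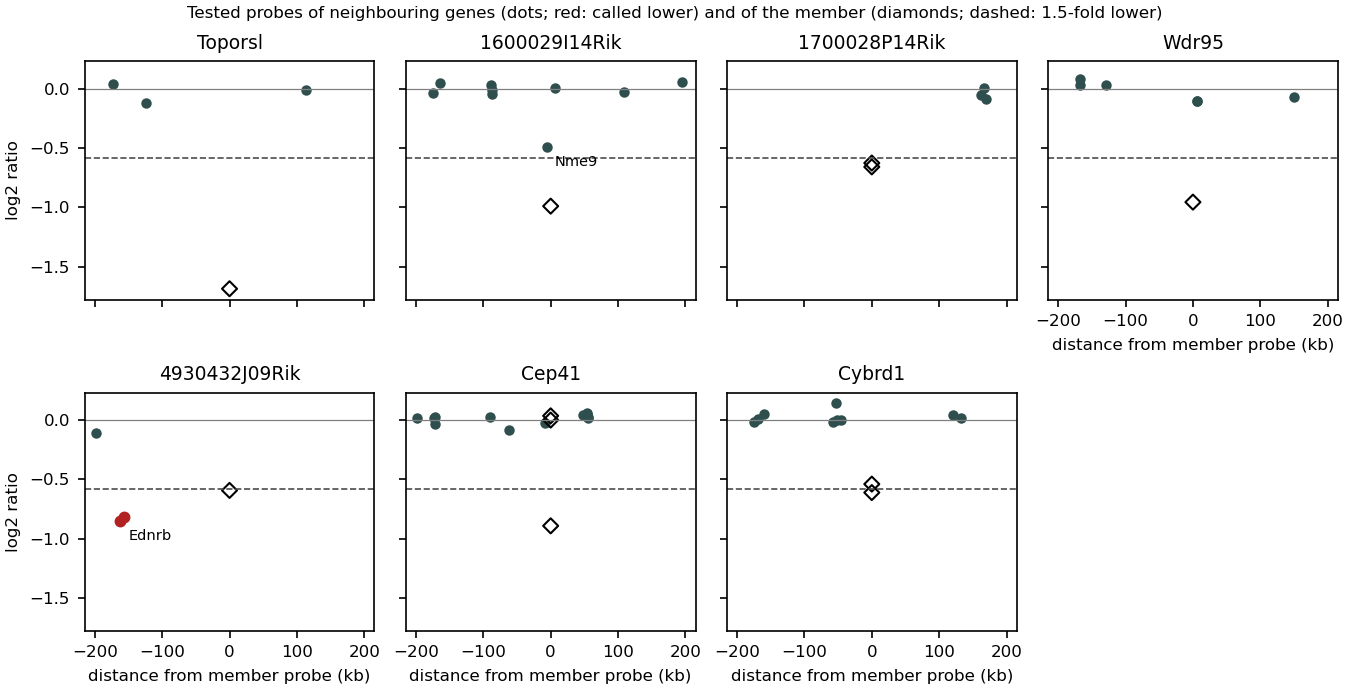
Log2 ratio (y axis) of tested probes of other genes (dots) against their distance in kb from the nearest probe of each of the 7 transcripts (x axis), whose own probes are diamonds at 0; red dots are called lower and the dashed line is 1.5-fold lower. Ednrb at −0.82 and −0.86 beside 4930432J09Rik and Nme9 at −0.49 beside 1600029I14Rik stand apart from the other neighbours.

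Genes of the motile cilium axoneme, the group to which 1700028P14Rik belongs by its later name, tended to be lower. Of 61 tested genes of this list 47 (77.0%) had a ratio below 0, against 48.4% of all tested genes, and the median log2 ratio was −0.06 against 0.00. None was called at 1.5-fold, but 11 (18%) were lower and 1 was higher at a limma adjusted p under 0.05, where 0.613% of all tested genes were lower and 0.504% higher. The list was chosen with earlier results of these data known, so these shares are a description, and the list as a whole was not tested. Cfap65, a protein of the sperm flagellum, was lowest at −0.56 ± 0.10 (adjusted p = 0.00127). Another probe, listed under its earlier name Ccdc108, was at −0.03 ± 0.03 and did not pass. The list holds both names, so the 61 and the 47 count this gene under each. Cfap45, a protein inside doublet microtubules, was at −0.49 ± 0.05 (adjusted p = 0.00187). Hydin, of the central pair apparatus, was at −0.50 ± 0.13 (adjusted p = 0.00559). Nme9, described above, was the other of the 4 with the smallest p. Ccdc39, which sets the spacing of dynein arms, went the other way at 0.30 ± 0.14 (adjusted p = 0.0316). Foxj1, the regulator of motile ciliogenesis, was at −0.03 and Rfx3 at −0.11, and neither passed the test. The count of 11 was 6 without array 1, 5 without array 3 and 4 without the dye term, and leaving out array 2 or array 4 gave 12 or 10.

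Lists around the other members showed no change past the test. For Cep41, 27 tested Joubert syndrome genes and 19 of tubulin glutamylation had medians of 0.01 and 0.00 and 0 genes at an adjusted p under 0.05. The largest values were 0.09 for Cc2d2a, a protein of the ciliary transition zone, and −0.14 for Ttll9, a tubulin ligase. For Cybrd1, 10 genes of the cytochrome b561 and ferric reductase family and 17 of iron transport and storage had medians of 0.02 and 0.01, with Steap4 at 0.12 and Slc39a8 at −0.15, and 0 passed. For Toporsl, 17 genes of the SUMO pathway lay between −0.06 (Senp3) and 0.09 (Pias4), and 0 passed. For Wdr95, 57 genes of the Wdr family had a median of −0.01, and Wdr72, at 0.27, had the smallest p without passing (limma, adjusted p = 0.0829).

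Of the 31 genes called lower, 5 (16.1%) had a Rik name, against 1278 of 21219 tested genes (6.02%), and 3 of the 5 are described here and were chosen for their decrease. The other 2 were 3830417A13Rik and C030013G03Rik, both at −0.64. A further 3 genes with such a name were called higher, 1810062G17Rik at 1.04, 2310065F04Rik at 0.81 and 4930512H18Rik at 0.63. Of these, 1810062G17Rik lies on chromosome 3, where Sox2ot, named for Sox2, was also called higher, at 0.61. Only Sox2-Tbx2LOF pools carried the recombinase knocked into Sox2, so its part and that of Tbx2 loss cannot be told apart. Genes with a called lower probe were 0.146% of all tested genes.

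The levels of the 7 moved alike over the 8 pools, which is given as a description because the levels share arrays and the genotype difference that chose the transcripts. Pearson's r between pairs of members, each by its brightest tested probe, ran from 0.80 (4930432J09Rik with Cep41) to 0.99 (Toporsl with Cybrd1), with a median of 0.95 over 21 pairs. Among all tested probes, the closest in pattern to Toporsl was 1700028P14Rik (r = 0.99), followed by Hhla1 and Mns1, the latter a protein of the axoneme. Cep41 was closest to Ntf3 (r = 0.997), Fgf20 and Gal3st4, and Cybrd1 was closest to Ednrb (r = 0.99). For 1600029I14Rik the closest were Hhla1, Gm35208 and an unnamed transcript, for 1700028P14Rik Cabp2, Toporsl and Corin, and for Wdr95 Oxtr, Dnajc5b and Prdm12. 4930432J09Rik had the fewest probes of like pattern, 12 above r = 0.95, and the closest were Aldoc, Degs2 and Fstl1.

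**Figure D5:**
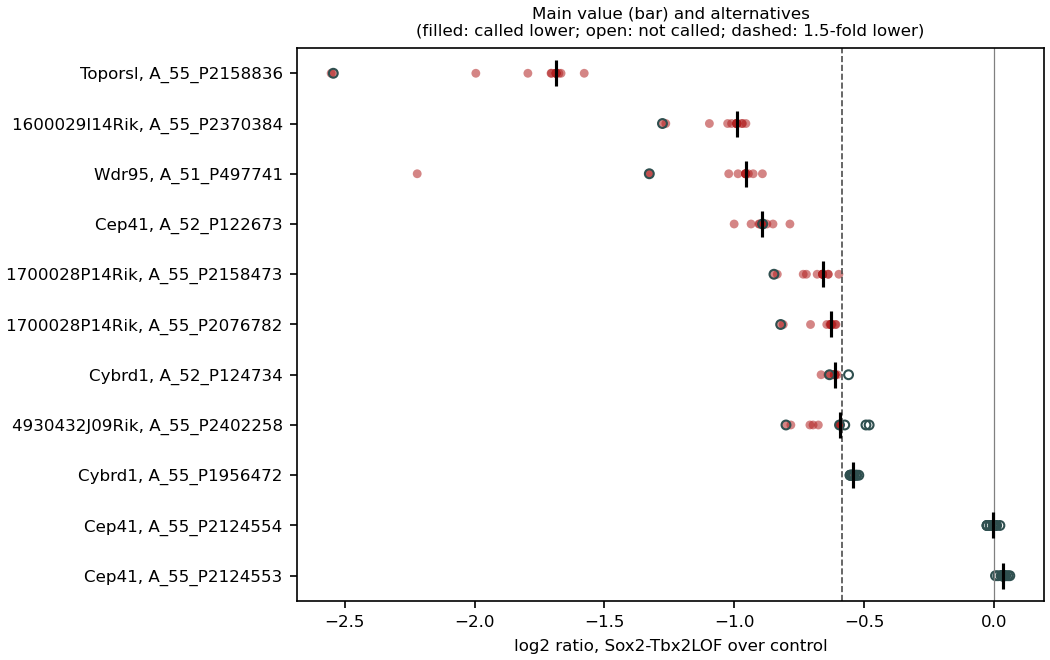
Log2 ratio of the 11 tested probes (x axis) as reported (black bar) and under each alternative (filled where called lower, open where not), with the dashed line at 1.5-fold lower. The 8 called probes, of transcripts chosen for their decrease, stayed below 0, Toporsl ranged from −2.55 to −1.58, and 4930432J09Rik and Cybrd1 lie close to the line.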

How the data were processed

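Two-colour arrays were scanned and read by the authors with Agilent Feature Extraction 10.7.3.1, and coordinates follow the array's mm9 annotation. The deposited scanner values are spot and local background intensity, with a log10 ratio of red over green from the same software. A deposited value table holds, from its values, signed fold changes (a score without values between −1 and 1, whose making is not given in the sources used here), and it was used only as an alternative. Its direction was set against the scanner values.

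Intensities were background-corrected (normexp, offset 50), loess-normalized within arrays and, for channel levels, Aquantile-normalized between arrays in limma 3.58.1 (R 4.3.3). Each array held 174979 spots, of which 17263 control spots and outlier-flagged spots had weight 0, and the 4 spots of a probe were averaged. Probes above background in over 0.5 of their unflagged spots on at least 3 of 4 arrays in either genotype were tested. The log2 ratio of Sox2-Tbx2LOF over control was fitted with limma with an intercept and a dye term, with Benjamini-Hochberg adjustment over 28104 probes. A call needed an adjusted p under 0.05 and 1.5-fold. A sex term tested the sex by genotype difference, and a separate-channel fit (intraspot correlation 0.816) tested level between sexes, both called at an adjusted p under 0.05. Gene lists used each gene's brightest tested probe.

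The 2 pools of an array are paired by hybridization and sex, as the labels give them, so the pairing is part of the ratio. For the genotype ratio, limma p-values rest on the spread left between arrays after the dye term, drawn towards the spread of all tested probes. The SD printed beside a p-value still holds the dye effect and is a different measure of spread. The members and gene lists were chosen with earlier results of these data known. The 6 IHC and inner supporting cell markers that were called had been picked by the study on these arrays. Besides all members, the text names called neighbours and the nearest tested gene on each side, up to 4 genes of a list with the smallest p and its called genes, the 3 probes closest in pattern and the genes nearest the threshold. Steap4, Ccdc39, Foxj1, Rfx3, Cc2d2a, Pou4f3, Myo7a, Gm35116, Otof, Calb2, Atp2a3 and Sox2ot were named outside this rule after their values were seen. Of the probes, 28757 matched a RefSeq gene by accession.

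The fits were tested on simulated data with 28104 probes. For the genotype ratio, all planted changes of 0.8 or 1.5 on the log2 scale were called, with 0 false calls. For sex by genotype, planted changes of 2 were all called, with 7 false calls, and for level between sexes 94% were called, with 0 false calls. The simulated noise came from the fitted model for ratios and was set to a fixed size for brightness between arrays. These shares may therefore not hold for the pools themselves. Differences between sexes as small as those of the members were not planted. Alternatives were another offset, median centring, the scanner's log ratio, the value table, no or a stricter filter, flagged spots kept, no dye term, an unpaired fit, SAM, no minimum fold and each array left out. Figures were drawn with matplotlib 3.10.9.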

Additional observations from a re-analysis of the deposited data

Results flagged for a closer look

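Cybrd1 probe A_52_P124734 had 1 array apart from the others. Its log2 ratio was −0.46 on array 2 and −0.65 to −0.68 on arrays 1, 3 and 4, a gap of 0.888 of the whole range, above Dixon's critical value for 4 samples. It was the only one of 36 groups of 4 values examined here to pass it, and chance alone gives about 1 such case in 20 groups. The other Cybrd1 probe was also least lowered on array 2, at −0.48.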

How the results depend on the processing

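The 8 called probes of the 7 transcripts kept their direction under every alternative in which they were tested (Wdr95 did not pass the stricter filter), and 4930432J09Rik was called in 11 of 16. Nothing is read from the direction, for which the transcripts were chosen. A changed filter, no dye term, the unpaired fit, SAM and no minimum fold left the ratio as it was and could change only the call. Leaving out 1 array could not turn ratios that were all below 0. The number of transcripts called, 7, was 6 with median centring, with no filter or with a stricter filter, and 6 to 7 with each array left out. It was 0 with the deposited value table, in which 1648 of the tested probes (5.86%) were listed at no change on at least 1 array. With those probes left out, an alternative chosen after seeing the data, it was 7. Calls over all probes, 36 lower and 34 higher, became 72 and 52 with the scanner's log ratio, 0 and 1 with the value table, 58 and 48 with it less those probes, 151 and 126 with no minimum fold, 35 and 22 unpaired, 36 and 23 with SAM, and 74 and 32 without array 1.

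Neighbouring probes called, 2, were 0 with the value table, 1 in the unpaired fit with no replicate block, and 2 with any array left out. The unpaired fit, which drops the pairing, called 7 members. Genes called in the related lists, 5, all with Rik names, were 16 with the scanner's log ratio, 0 with the value table, 14 with it less those probes, 8 with the smaller offset, 3 with the stricter filter, 34 with no minimum fold, and 5 to 9 with each array left out. Axoneme genes that were lower, 11, were 0 with the value table, 4 without the dye term, 5 unpaired, and 5 to 12 with each array left out. The cause of these shifts was not tested.

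No member was called for level between sexes under any alternative run. Without array 2, 5 member probes had an unadjusted p under 0.05 there, where 356 of all probes were called. Sex by genotype called 0 of all probes under each alternative run and could not be fitted with an array left out. Wdr95 was near background and ran from −2.22 with the scanner's log ratio to −0.89 without array 2.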
